A study of Mus musculus with 24 samples.

Results

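The proteasome genes were followed in the cerebellum and hippocampus of Npc1-/- and Npc1+/+ mice. Members were the rows whose gene ID maps to a mouse symbol made of Psm, a letter from a to g and a number, without the pseudogene symbols. This gave 50 of 57126 genes, and the 4 pseudogene rows that were left out held no count in any library. By known role the 50 were 8 alpha ring subunits, 3 constitutive and 3 immune catalytic subunits, the thymic catalytic subunit Psmb11, 4 other beta ring subunits, 6 ATPases and 11 other subunits of the 19S cap, 6 activators or inhibitors, and 7 assembly factors. The last member, Psmc3ip, shares the symbol pattern and is a meiotic recombination factor, not a proteasome part.

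The mice were of the strain BALB/cNctr-Npc1m1N/J, in which homozygous loss of Npc1, the lysosomal cholesterol exporter, models Niemann-Pick disease type C1. One group of 4 Npc1+/+ mice and one of 4 Npc1-/- mice received vehicle (PBS:PEG400), and another 4 Npc1-/- mice received dipyridamole, a vasodilator that blocks nucleoside uptake and phosphodiesterases, in the same vehicle. Injections at 30 mg/kg were intraperitoneal, on 5 days a week from postnatal day 28. The Npc1+/+ mice were female and 65 days old, and the Npc1-/- mice were 63 days old, with 1 female among the 4 given vehicle and 2 among the 4 given dipyridamole. Age, cage (the genotypes were housed apart) and the range of library ion codes go wholly with genotype, and their parts in a genotype difference cannot be told apart. The allele is carried by every cell of the Npc1-/- mice and not by one cell type.

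The proteasome is the protease that degrades proteins tagged with ubiquitin. Its core is a barrel of outer alpha rings and inner beta rings, and the 19S cap, with its ring of ATPases, binds, unfolds and feeds the substrate. Cells exposed to interferon gamma, and many immune cells at rest, replace the catalytic subunits Psmb5, Psmb6 and Psmb7 with Psmb8, Psmb9 and Psmb10 respectively, and this immunoproteasome together with the PA28 activator made of Psme1 and Psme2 is known for supplying peptides to class I molecules. In brain the constitutive form prevails, and microglia are a known site of the immune form.

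Interferon acts on such genes through short promoter elements, so the 250 bases before each start site were searched on both strands for TTCNNNGAA, the gamma-activated site pattern, and for the core of the interferon-stimulated response element, 2 copies of GAAA with 2 bases between them. Promoters came from RefSeq on GRCm38.p6 and matched 42 of the 50 members. TTCNNNGAA was found upstream of 2 members, 4.76% of the 42, against 7.02% of all 32851 promoter windows, and the response element core upstream of 3 members, 7.14%, against 2.98% of all windows. The 5 stretches that hold a match are shown because they set the immune subunit Psmb8 beside members that are not immune catalytic subunits. Each is written from the 5′ end of the gene's own strand with the match in capitals and up to 10 bases on each side.
Psmb8: tcctccgctgTTCCCAGAAgatgcccccc
Psmg1: actcatgTTCTCTGAAtccgcttgca
Psmb3: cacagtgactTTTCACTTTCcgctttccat
Psmd4: ataaccaaccTTTCCATTTCtgtggcgcct
Psmd9: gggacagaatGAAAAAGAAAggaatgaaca
The Psmb8 stretch lies at chr17:34198088-34198116 on the plus strand, its match begins 97 bases before the start site, and in GENCODE vM21 it falls inside an exon of a longer Psmb8 transcript. The matches of Psmg1, Psmb3, Psmd4 and Psmd9 begin 243, 163, 80 and 159 bases before their start sites. No match of either pattern was in the windows of Psmb9, Psmb10, Psme1 and Psme2, which says only that these letters are not there. The antioxidant response core TGANNNNGC was upstream of 40.5% of the 42 members and 35.2% of all windows, and CCAAT upstream of 35.7% and 33.8%.

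RNA was read with an amplicon panel, so each gene is compared with itself across libraries and never with another gene in level. Library totals ran from 1833609 to 11590081 counts. Replicate 2 of the Npc1-/- vehicle group had the fewest counts, in its cerebellum, and both tissues of Npc1-/- dipyridamole replicate 4 are labelled with 1 ion code, 124. Npc1 checked the labels. It lay between 97.8 and 107 CPM (a gene's counts scaled to the effective size of its library) in the Npc1+/+ cerebellum, between 21.7 and 37.6 with vehicle and 13.4 and 27.3 with dipyridamole in the Npc1-/- cerebellum, and its groups did not overlap in the hippocampus either (63.6 to 98.3 CPM against 17.8 to 23.0 and 15.5 to 21.4).

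Of the 50 members, 43 had enough counts to be tested. The other 7 were Psma3 and Psmg3, with no count at all, Psma5 with 1 count over the 24 libraries, the constitutive catalytic subunit Psmb5 with 3, Psme2b with 6, the testis alpha subunit Psma8 with 25, and Psmb11 with 36. Psma3, Psma5 and Psmb5 are parts of the proteasome core that every cell uses, so these near-empty rows say nothing of expression and Psmb5 could not serve as the partner of Psmb8. Psmb11, the catalytic subunit of thymic epithelium, was counted 12 times in the 4 Npc1+/+ hippocampi, 1 time in Npc1-/- with vehicle and 17 times with dipyridamole, too few to test.

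Most members kept nearly the same level in all 6 groups. In 40 of the 43 tested members the highest group mean was less than 2 times the lowest, in 30 it was less than 1.5 times, and the median ratio was 1.34. The 3 members beyond 2 times were Psmb9 (4.45 times), Psmb8 (3.32 times) and Psme1 (2.12 times), followed by Psme2 (1.94 times). These 4 belong to the immunoproteasome and PA28. Close behind came the assembly factor Psmg1 (1.87 times), Psmb10 (1.84 times) and the ATPase Psmc6 (1.82 times). Psmb9, Psmg1 and Psme2 had only 219, 665 and 1342 counts over all libraries, where such a ratio is less certain. The ratio was not taken over all genes.

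**Figure D1:**
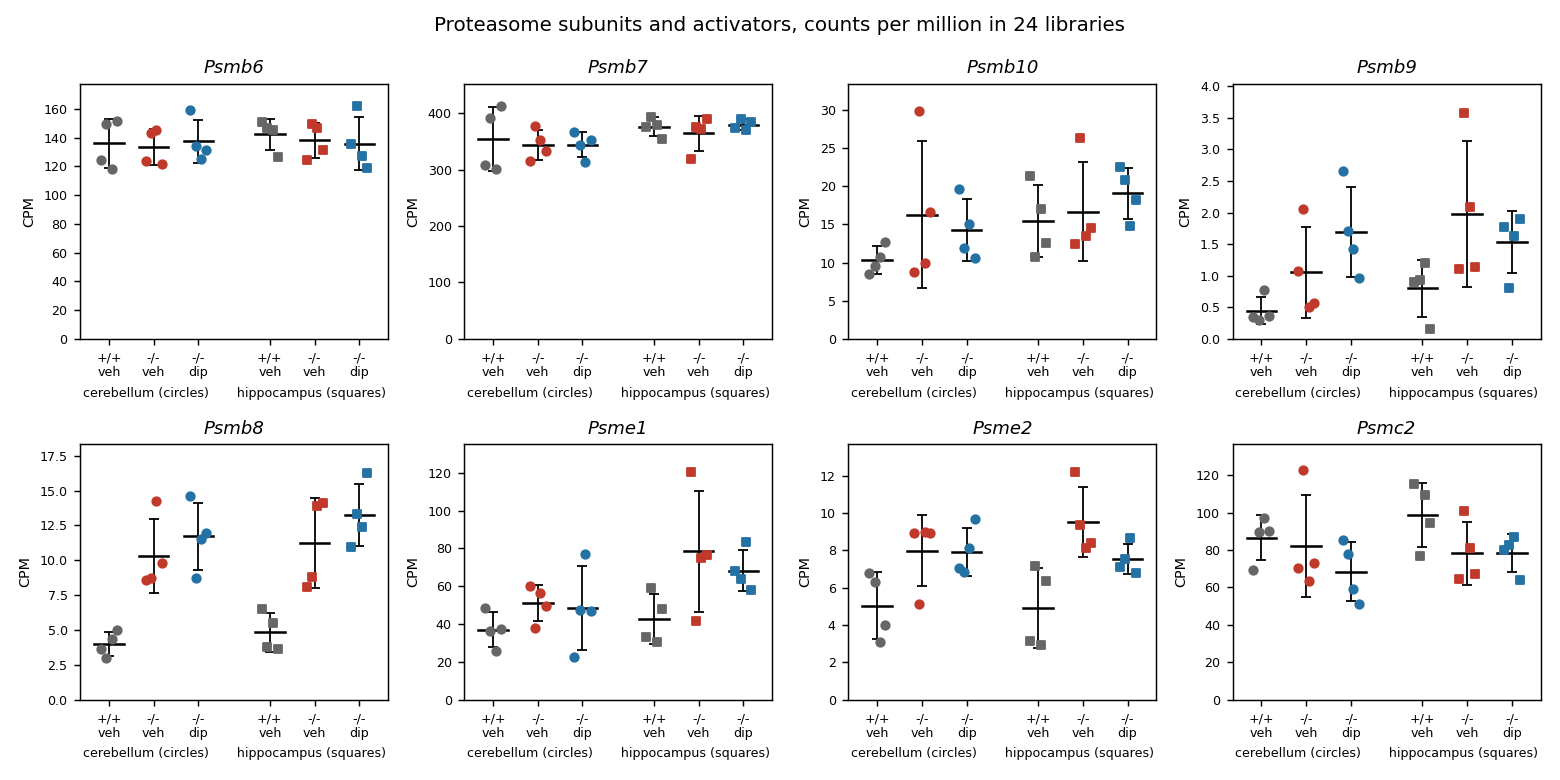
CPM (y axis, linear, from 0) of 8 members in each library, by group; points are mice, circles cerebellum and squares hippocampus, lines the mean and bars the SD (n = 4). Psmb6 and Psmb7 sit at one level throughout, while all Npc1-/- libraries lie above all Npc1+/+ libraries of the same tissue for Psmb8.

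Psmb8 (beta5i, chr17:34416695-34420428 on GRCm39, plus strand), which takes the place of Psmb5 in the immunoproteasome, rose in both tissues of Npc1-/- mice. In the cerebellum the 4 Npc1+/+ mice had 3.65, 3.00, 4.36 and 4.97 CPM and the 4 Npc1-/- vehicle mice 8.59, 8.74, 14.2 and 9.77 CPM. The groups did not overlap, and the means, 4.00 ± 0.86 and 10.3 ± 2.65 CPM (SD, n = 4 each), differed 2.59-fold. The fit, which adjusts for sex, put the log2 fold change at 1.60 ± 0.27 (SE, adjusted p = 0.000856, edgeR quasi-likelihood test with Benjamini-Hochberg adjustment). In the hippocampus the Npc1+/+ mice had 6.51, 3.75, 5.51 and 3.62 CPM and the Npc1-/- vehicle mice 8.08, 8.79, 13.9 and 14.1 CPM, again without overlap. The means were 4.85 ± 1.4 and 11.2 ± 3.24 CPM (SD, n = 4 each), and the log2 fold change was 1.44 ± 0.30 (SE, adjusted p = 0.0283, edgeR).

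Psmb8 was the single member of 43 that passed the test for genotype in the cerebellum, where 9.95% of all 12921 genes did, and again the single one in the hippocampus, where 1.62% of 12740 genes did. The share of members, 2.33% in each tissue, is below that of all genes in the cerebellum and close to it in the hippocampus. Unadjusted, 4 members had a p under 0.05 in the cerebellum, where 23.9% of all genes did, and 5 in the hippocampus, where 12.3% did. The call for Psmb8 could be lost by leaving out 1 mouse. It held in 19 of 20 alternatives in the cerebellum and in 10 of 20 in the hippocampus. The only female among the Npc1-/- vehicle mice, replicate 3, had the highest cerebellar Psmb8, and without it the adjusted p was 0.0995 in the cerebellum (log2 1.2) and 0.346 in the hippocampus (log2 1.34). In the hippocampus the call was also lost without Npc1+/+ replicate 2, 3 or 4 and without Npc1-/- dipyridamole replicate 1, 2 or 4, with adjusted p-values of 0.0508 to 0.0853. The log2 fold change was positive under every alternative run, and without the sex covariate it was 1.42 and 1.21 with adjusted p-values of 0.000419 and 0.0148 (edgeR).

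The other immune catalytic subunits did not pass the test. Psmb9 (beta1i), the replacement of Psmb6, had 219 counts in all libraries together. It lay at 0.347, 0.300, 0.770 and 0.364 CPM in the Npc1+/+ cerebellum and at 1.07, 2.06, 0.499 and 0.575 CPM in the Npc1-/- vehicle cerebellum, with overlap. In the hippocampus it lay at 0.904, 0.938, 1.21 and 0.151 CPM and at 1.11, 3.57, 2.10 and 1.14 CPM. Its log2 fold changes of 0.30 ± 0.62 and 1.42 ± 0.65 (SE) had 95% intervals of -1.01 to 1.61 and 0.02 to 2.82, and the cerebellar one holds both 0 and the estimate of Psmb8. Psmb10 (beta2i), the replacement of Psmb7, had mean levels of 10.4 ± 1.82 and 16.3 ± 9.67 CPM in the cerebellum and 15.4 ± 4.74 and 16.7 ± 6.53 CPM in the hippocampus (SD, n = 4 each). The high mean of the Npc1-/- vehicle cerebellum came from replicate 2, at 29.8 CPM, beside 8.71, 9.99 and 16.7 CPM in the other 3. The log2 fold changes of Psmb10 were 0.17 (95% interval -0.61 to 0.95) and -0.21 (-0.91 to 0.50).

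The 2 constitutive catalytic subunits that could be read barely varied. Psmb6 (beta1, caspase-like activity) lay at 125, 150, 118 and 151 CPM in the Npc1+/+ cerebellum and at 123, 143, 145 and 122 CPM in the Npc1-/- vehicle cerebellum, and at 126 to 151 against 125 to 149.5 CPM in the hippocampus. Psmb7 (beta2, trypsin-like activity) averaged 354 ± 57.0 and 344 ± 26.8 CPM in the cerebellum and 376 ± 16.1 and 364 ± 30.8 CPM in the hippocampus (SD, n = 4 each). The log2 fold changes of Psmb6 were -0.04 (95% interval -0.39 to 0.31) in the cerebellum and -0.12 (-0.45 to 0.22) in the hippocampus. Those of Psmb7 were -0.05 (-0.40 to 0.30) and -0.04 (-0.34 to 0.25). All 4 intervals lay within a 1.5-fold change in either direction.

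The balance of immune to constitutive subunit within a library was also higher for Psmb8, from the same counts and so with no independent weight. Its usual partner Psmb5 was unreadable, so Psmb6 and Psmb7 were set against it, a choice made after the counts were seen. The log2 ratio of Psmb8 to Psmb6 counts was -5.09 ± 0.38 in the Npc1+/+ cerebellum and -3.70 ± 0.28 in Npc1-/- with vehicle (SD, n = 4 each), a difference of 1.38. In the hippocampus it was -4.90 ± 0.34 and -3.65 ± 0.41, a difference of 1.25. Against Psmb7 the differences were 1.39 and 1.25, and for neither partner did the groups overlap in either tissue. Psmb9 against Psmb6 differed by 1.10 and 1.39, and Psmb10 against Psmb7 by 0.52 and 0.14, with pooled SDs of 0.81, 0.86, 0.54 and 0.45. Of these, Psmb9 against Psmb6 in the hippocampus had groups that did not overlap (-9.12 to -6.83 and -6.76 to -5.33), and the other 3 overlapped. These ratios carry no test, and their absolute values depend on the amplicons.

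**Figure D2:**
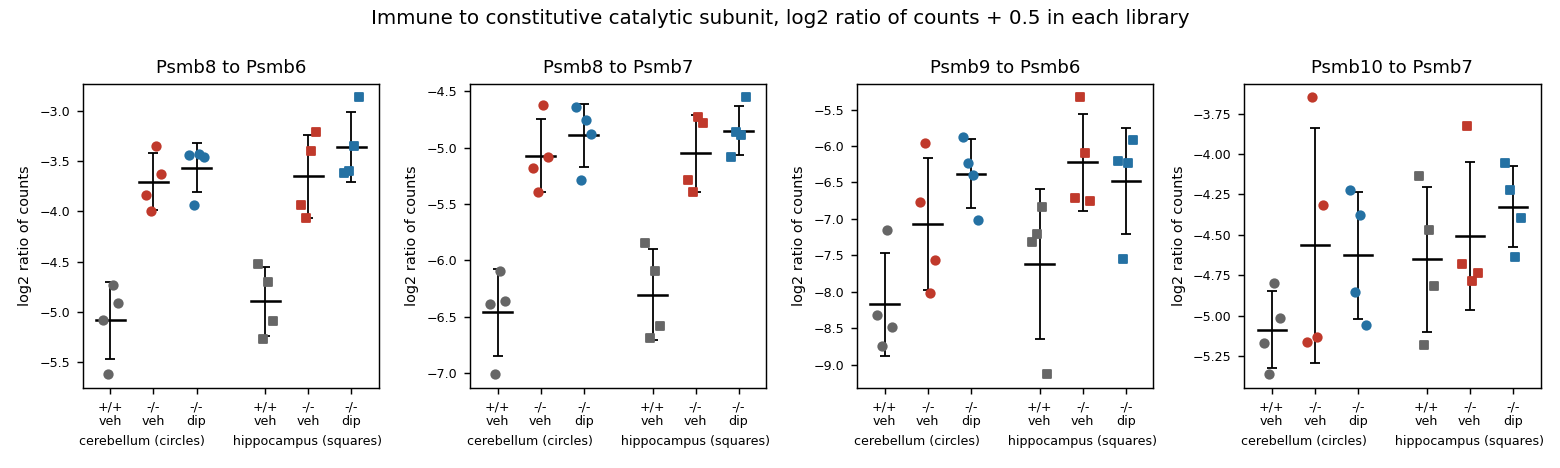
Log2 ratio of the counts of an immune to a constitutive catalytic subunit, with 0.5 added to each count, in every library (y axis, a separate range in each panel); lines show the mean and bars the SD (n = 4). Both Psmb8 panels separate Npc1+/+ from Npc1-/-, Psmb9 to Psmb6 separates them with vehicle in the hippocampus and with dipyridamole in the cerebellum, and Psmb10 to Psmb7 overlaps in both tissues.

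The PA28 activator had the next highest estimates in the cerebellum and, after Psmb9, in the hippocampus. Psme1 lay at 48.4, 36.2, 25.9 and 37.1 CPM in the Npc1+/+ cerebellum and at 60.2, 38.0, 56.4 and 49.7 CPM in Npc1-/- with vehicle. In the hippocampus the values were 33.2, 59.2, 30.3 and 47.7 against 120, 41.8, 74.8 and 76.7 CPM. Both tissues overlapped, through Npc1-/- vehicle replicate 2 at the low end. Psme2 lay at 6.78, 6.30, 3.08 and 4.00 CPM against 8.95, 5.14, 8.99 and 8.91 CPM in the cerebellum. In the hippocampus it lay at 3.16, 7.15, 2.95 and 6.34 against 12.2, 9.34, 8.14 and 8.42 CPM, without overlap. The log2 fold changes were 0.92 ± 0.32 and 0.90 ± 0.36 for Psme1 and 0.92 ± 0.31 and 0.90 ± 0.37 for Psme2 (SE). None passed the test, with adjusted p-values of 0.078 and 0.317 for Psme1 and 0.0732 and 0.347 for Psme2 (edgeR). In the cerebellum Psme2 passed it without Npc1-/- vehicle replicate 2 (adjusted p = 0.0368) and both passed without Npc1+/+ replicate 1 (0.0437 for Psme1 and 0.0417 for Psme2). Reads of Psme2 and its near-identical copy Psme2b could be split by the counting, and Psme2b held only 6.

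The nuclear activator Psme3 (PA28 gamma), Psme4 (PA200) and the inhibitor Psmf1 (PI31) did not pass the test. Their log2 fold changes were -0.21, -0.27 and 0.17 in the cerebellum and 0.20, 0.04 and 0.24 in the hippocampus. Psme3 averaged 336 ± 18.97 CPM in the Npc1+/+ cerebellum and 293 ± 21.2 CPM in Npc1-/- with vehicle, and 375 ± 29.5 and 423.5 ± 43.5 CPM in the hippocampus (SD, n = 4 each).

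No structural subunit passed the genotype test in either tissue. The 5 tested alpha ring subunits had log2 fold changes of -0.50 (Psma1) to 0.04 (Psma6) in the cerebellum and -0.55 (Psma1) to 0.34 (Psma7) in the hippocampus. The 4 non-catalytic beta subunits stayed between -0.08 (Psmb3) and 0.28 (Psmb4) over both tissues. The 11 other cap subunits, among them the ubiquitin receptor Psmd4 and the deubiquitinase Psmd14, ran from -0.39 (Psmd14, cerebellum) to 0.21 (Psmd3, cerebellum). The intervals of all 11 lay within a 2-fold change in both tissues.

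The cap's 6 ATPases, the ring that unfolds the substrate, had a median log2 fold change of -0.32 in the cerebellum and -0.20 in the hippocampus, with 4 and 5 of 6 below 0 and none called. Over all genes tested the medians were 0.01 and -0.01. Psmc2 passed the test in the cerebellum without Npc1-/- vehicle replicate 2, which had the highest Psmc2 of its group (log2 -0.59, adjusted p = 0.0294, edgeR). The lowest with all mice were Psmc2 in the cerebellum (-0.47 ± 0.22 SE) and Psmc6 in the hippocampus (-0.55 ± 0.24 SE). Psmc6 lay at 28.4, 31.5, 48.6 and 47.1 CPM in the Npc1+/+ hippocampus and at 21.7, 22.3, 26.8 and 26.4 CPM in Npc1-/- with vehicle. These groups did not overlap, and the adjusted p was 0.355 (edgeR).

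The assembly chaperones did not pass the test either. Their estimates ran from -0.60 (Psmg1) to 0.31 (Psmd9) in the cerebellum and from -0.14 (Psmg2) to 0.50 (Psmg4) in the hippocampus. Psmg1 (PAC1), which helps the alpha ring form, lay at 5.21, 4.90, 4.49 and 3.39 CPM in the Npc1+/+ cerebellum and at 2.50, 3.08, 2.87 and 1.15 CPM in Npc1-/- with vehicle, without overlap. Its adjusted p was 0.352 with the sex covariate and 0.0445 without it (edgeR). Psmc3ip had -0.77 and -0.28. Over all 43 members the median log2 fold change was -0.03 in the cerebellum and -0.08 in the hippocampus. Of the 42 members not called, 36 in the cerebellum and 33 in the hippocampus had a 95% interval within a 2-fold change, and 18 and 23 within a 1.5-fold change.

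**Figure D3:**
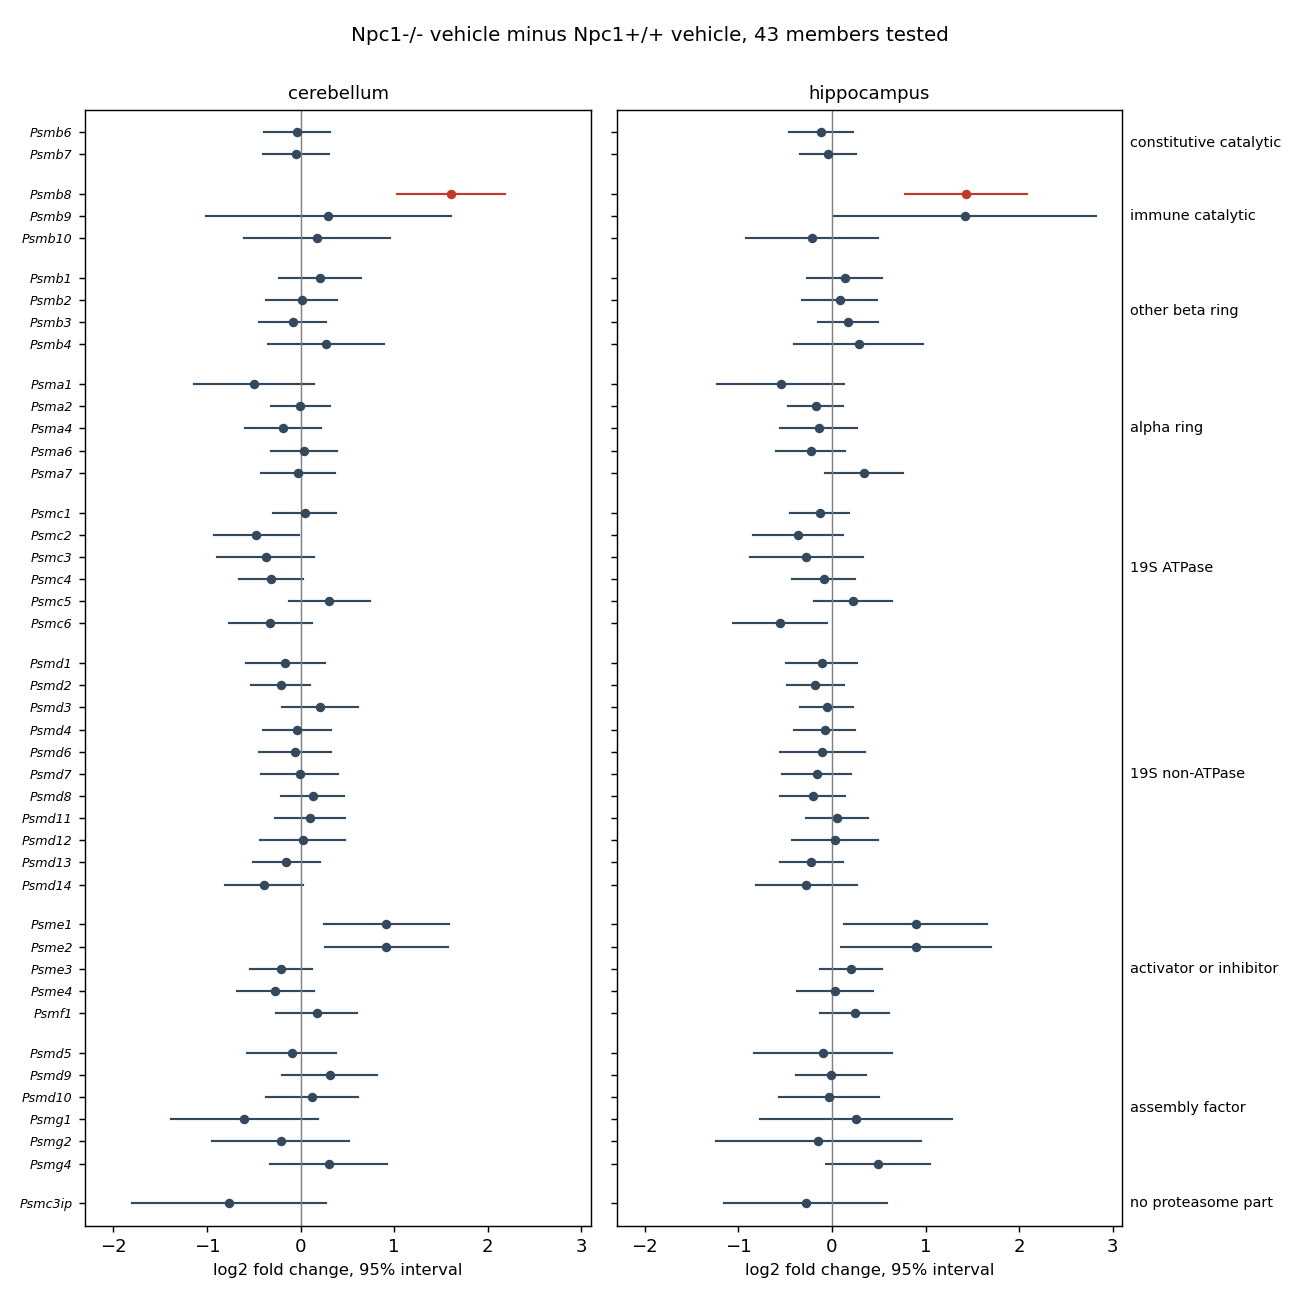
Log2 fold change of Npc1-/- vehicle over Npc1+/+ vehicle (x axis) with its 95% interval for the 43 tested members, grouped by role, in cerebellum (left) and hippocampus (right). Psmb8, in red, is the member that passed the adjusted p in both, Psme1 and Psme2 lie at 0.90 to 0.92, and the median member is at -0.03 and -0.08.

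In a tissue extract, a change in the number of cells of one type and a change in the RNA of each cell cannot be told apart. Markers of microglia rose in the same comparisons, most of them in the cerebellum and fewer in the hippocampus. Of 12 microglial markers 10 were tested, and 9 rose in the Npc1-/- vehicle cerebellum (median log2 fold change 2.16) and 4 in the hippocampus (1.39). Their summed level was 163 to 172 CPM in the Npc1+/+ cerebellum and 723 to 813 CPM in Npc1-/- with vehicle, and 377 to 477 and 668 to 871 CPM in the hippocampus. Itgam, one of the 12, had no count, and C1qa fewer than 10. Of 8 astrocyte markers 3 rose and 1 fell in the cerebellum and 2 rose in the hippocampus. Neuronal and myelin markers moved with genotype as well: all 7 tested Purkinje cell markers fell in the cerebellum (median -3.10), and 7 of 8 oligodendrocyte markers fell in the hippocampus (median -2.62). The part of these cells in the rise of Psmb8, or in the values of the other members, was not tested. Markers of T and NK cells were almost unread, with 76 counts in all libraries for 11 genes, and Cd3g and Klrb1c at 0.

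**Figure D4:**
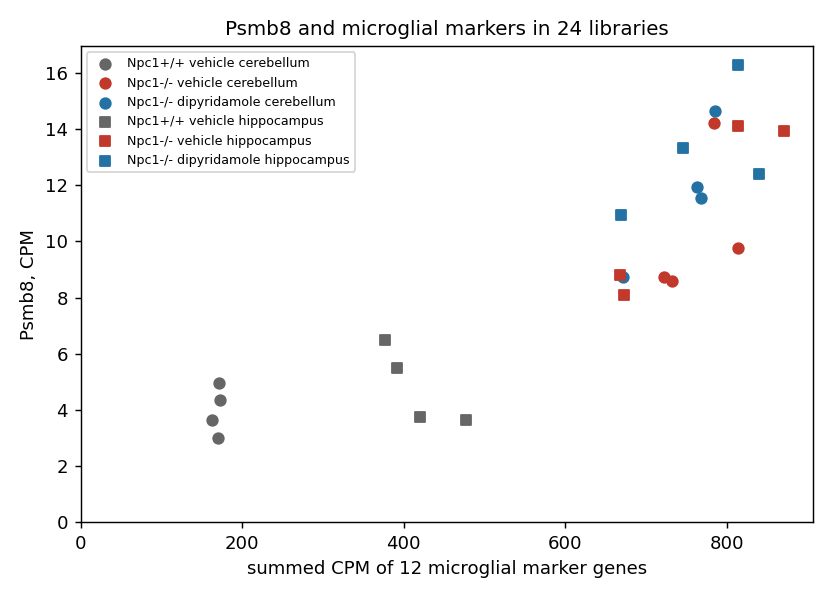
Psmb8 in CPM (y axis) against the summed CPM of 12 microglial markers (x axis) in each of 24 libraries, colored by group, with circles for cerebellum and squares for hippocampus. All 16 Npc1-/- libraries lie to the upper right at 8.08 CPM of Psmb8 or more, and the Npc1+/+ libraries lie at 3.00 to 6.51 CPM.

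Genes that work beside the immunoproteasome rose in part. Of all genes tested, 9.95% in the cerebellum and 1.62% in the hippocampus passed the genotype test. Of the 11 tested genes of class I peptide loading, 4 rose and 1 fell in the Npc1-/- vehicle cerebellum and 3 rose in the hippocampus. In the cerebellum these were the light chain B2m (log2 1.54 ± 0.17 SE, adjusted p = 1.0e-05), the heavy chain H2-K1 (1.37 ± 0.17, 4.2e-05), the peptide transporter Tap1 (1.60 ± 0.37, 0.00925) and its loading bridge Tapbp (0.90 ± 0.21, 0.0106), while the disulfide isomerase Pdia3 fell (-0.77 ± 0.18, 0.00864; edgeR). In the hippocampus they were H2-D1 (1.73), B2m (1.01) and H2-K1 (1.35), and Tap1 had 1.25 ± 0.47 with an adjusted p of 0.283. H2-K1 and H2-D1 belong to a family of near-identical genes, so their reads are uncertain. Of the 8 tested interferon gamma signalling genes, the transcription factors Irf8 (2.49 ± 0.31 SE, adjusted p = 3.6e-05) and Irf1 (0.97 ± 0.29, 0.0434, edgeR) rose in the cerebellum and none passed in the hippocampus. The rest of those tested were not called in the cerebellum, with log2 fold changes on both sides of 0, from -0.38 to 0.28. The part of microglia in the rise of Irf8 and Irf1 was not tested. Ifng itself had no count in any library.

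The wider ubiquitin system did not pass the test for genotype. Of the 11 tested proteasome partners, 11 tested regulators and shuttles and 2 tested ubiquitin or E1 genes, none was called in either tissue. Values in the cerebellum were Txnl1 (-0.43) and Zfand5 (-0.34) among the partners, and Nfe2l1, the factor that raises proteasome genes when the proteasome is inhibited (0.44 ± 0.19 SE, adjusted p = 0.154, edgeR), among the regulators. In the hippocampus Nfe2l1 had 0.13 ± 0.19. Ubb and the assembly factor Pomp were near 0 counts and could not be tested.

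Between dipyridamole and vehicle in Npc1-/- mice, no member passed the test in either tissue by edgeR or by DESeq2, and 0% of all genes did by edgeR. Unadjusted, 1 member had a p under 0.05 in the cerebellum, beside 2.32% of all genes, and 0 in the hippocampus, beside 0.73%. In the dipyridamole group Psmb8 lay at 14.6, 8.73, 11.5 and 11.9 CPM in the cerebellum and at 11.0, 13.3, 12.4 and 16.3 CPM in the hippocampus. These values overlapped those of the Npc1-/- vehicle mice, and the log2 fold changes were 0.11 (95% interval -0.35 to 0.58) and 0.15 (-0.38 to 0.68). Of the 43 members, 40 in each tissue had an interval within a 2-fold change, and 33 and 31 within a 1.5-fold change.

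The member with the low p was Psmb9 in the cerebellum. It lay at 2.65, 1.71, 1.43 and 0.967 CPM with dipyridamole and at 0.499 to 2.06 CPM with vehicle, which overlap. The log2 fold change was 1.14 ± 0.45 (SE), with an unadjusted p of 0.0219 and an adjusted p of 1.0 (edgeR). In the hippocampus Psmb9 had -0.38 ± 0.52, and the difference between the tissues was -1.38 ± 0.62 (SE) with an unadjusted p of 0.0386 and an adjusted p of 1. Psme1 and Psme2 had -0.29 and -0.15 in the cerebellum and -0.22 and -0.32 in the hippocampus. Psmb6, Psmb7 and Psmb10 had 0.04, 0.00 and 0.06 in the cerebellum and -0.01, 0.05 and 0.30 in the hippocampus. Over the 43 members the medians were -0.03 and 0.01. The summed microglial markers lay at 672 to 785 CPM in the cerebellum and 669 to 839 CPM in the hippocampus with dipyridamole.

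**Figure D5:**
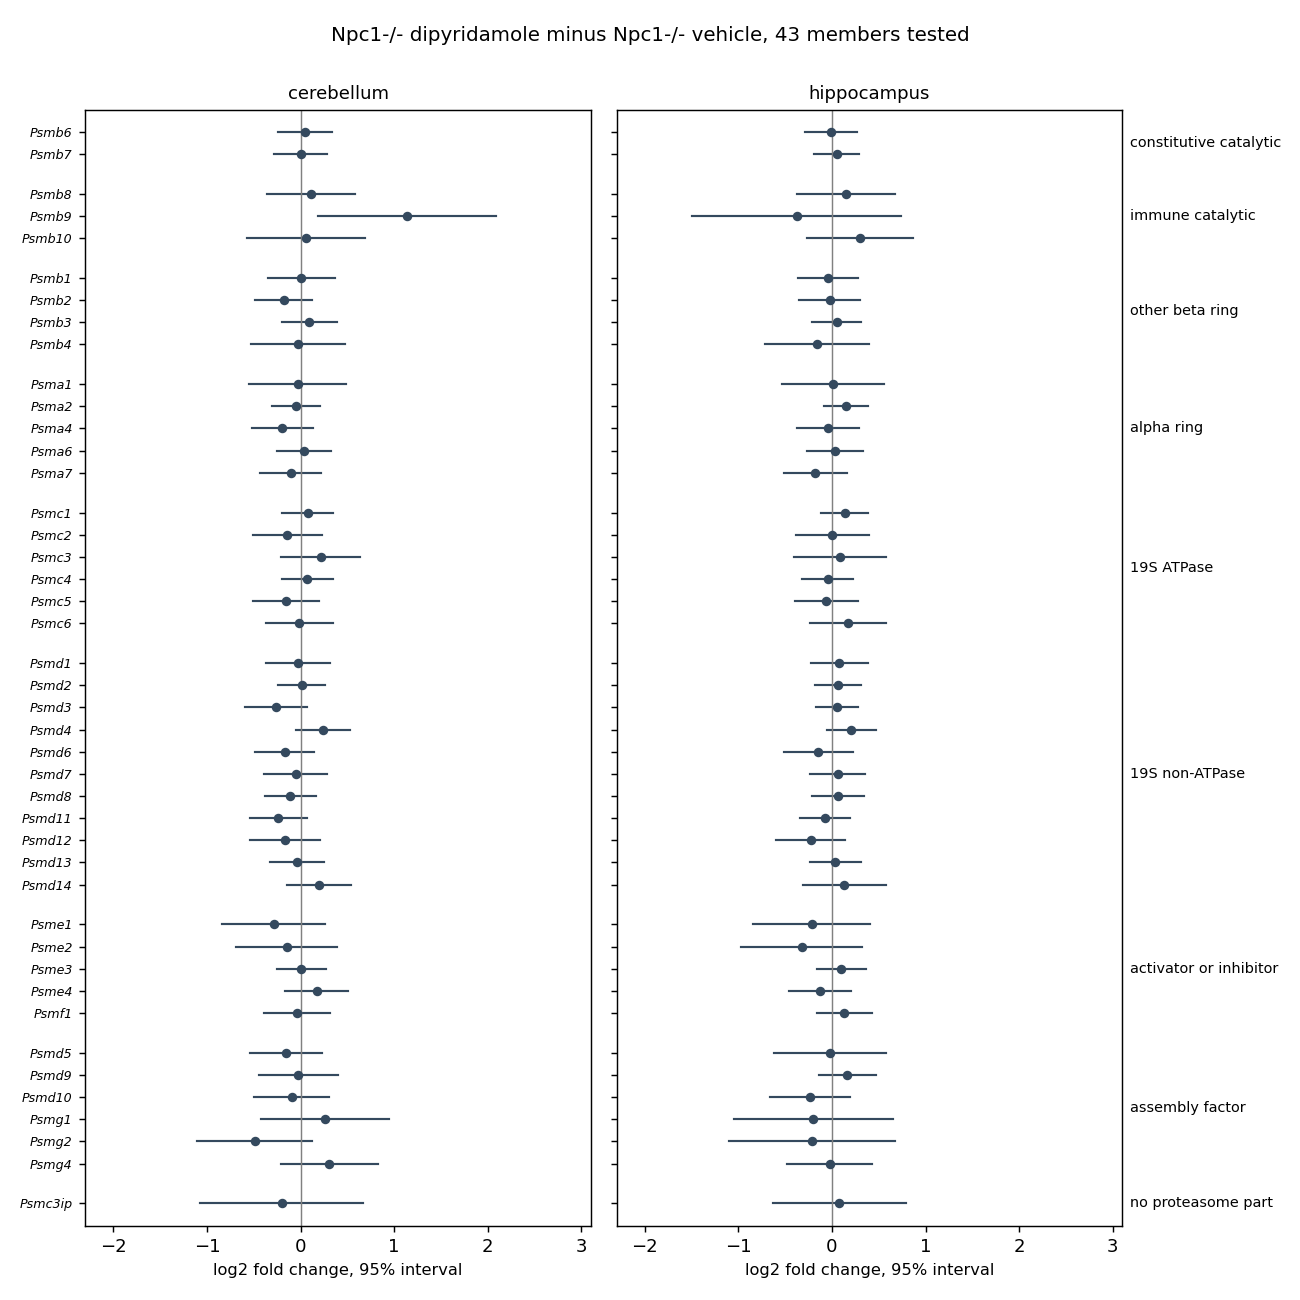
Log2 fold change of Npc1-/- dipyridamole over Npc1-/- vehicle (x axis) with its 95% interval for the same 43 members in cerebellum (left) and hippocampus (right). No member passed the adjusted p, and Psmb9, with few counts, has the widest intervals of the catalytic subunits.

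Psmb8 was also higher in the dipyridamole group than in the Npc1+/+ mice. This comparison shares its controls with the genotype comparison, which in turn shares its Npc1-/- vehicle mice with the dipyridamole comparison. Psmb8 had a log2 fold change of 1.71 ± 0.25 in the cerebellum (SE, adjusted p = 0.000142) and 1.59 ± 0.27 in the hippocampus (adjusted p = 0.00558, edgeR), beside 1.60 and 1.44 with vehicle. Without Npc1-/- dipyridamole replicate 4 the hippocampal adjusted p was 0.0524. In the cerebellum 2 members were called, where 14.4% of genes were, and 1 in the hippocampus, where 2.68% were.

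The second cerebellar member was the ATPase Psmc2, which fell. It lay at 69.2, 89.6, 97.3 and 90.3 CPM in Npc1+/+ mice and at 85.5, 77.8, 59.1 and 51.4 CPM with dipyridamole, with overlap. The log2 fold change was -0.61 ± 0.19 (SE, adjusted p = 0.0416, edgeR), and without the sex covariate it was -0.33 with an adjusted p of 0.255. The call was lost without Npc1+/+ replicate 2, 3 or 4, Npc1-/- vehicle replicate 3 or Npc1-/- dipyridamole replicate 2, 3 or 4 (adjusted p = 0.0619 to 0.202), and held in 10 of 20 alternatives. Psmb9 had 1.43 ± 0.53 in the cerebellum without overlap (adjusted p = 0.077), and without the sex covariate 1.93 with an adjusted p of 0.00873. Psme1 and Psme2 had 0.63 and 0.77 in the cerebellum and 0.68 and 0.58 in the hippocampus, and passed in the cerebellum without Npc1-/- dipyridamole replicate 1 (Psme1, adjusted p = 0.0426) and without Npc1+/+ replicate 1 (Psme2, 0.0389). Psmb6, Psmb7 and Psmb10 had 0.01, -0.05 and 0.23 in the cerebellum and -0.13, 0.01 and 0.09 in the hippocampus.

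Between the tissues of the Npc1+/+ mice 2 members passed the test, 4.65% of the 43, in a comparison where 43.1% of all genes passed. Both were lower in the hippocampus. Psmc5, a cap ATPase, lay at 572, 574, 527 and 511 CPM in the cerebellum and at 375, 466, 439 and 449 CPM in the hippocampus, without overlap, with a log2 difference of -0.34 ± 0.10 (SE, adjusted p = 0.0146, edgeR with the animal as block). The cap subunit Psmd12 lay at 169, 152, 120 and 125 CPM and at 95.3, 116, 115 and 115 CPM, also without overlap, with -0.35 ± 0.13 (adjusted p = 0.0383). Without the animal block the adjusted p-values were 0.0971 and 0.0962. Without Npc1+/+ replicate 1, whose hippocampal Psmd12 was the lowest of its group, they were 0.0756 and 0.239, the log2 differences were -0.25 and -0.20, and Psmd6 alone was called. Without Npc1+/+ replicate 4 there were 6 calls, with Psma1, Psmb10, Psmc3 and Psmd7 higher in the hippocampus beside these 2. Psmd12 was also lost without Npc1+/+ replicate 2 (adjusted p = 0.111, with Psmd14 called in its place) and without Npc1-/- vehicle replicate 1 (0.0516).

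The immune subunits had positive estimates between tissues, 0.29 ± 0.25 (SE, 95% interval -0.24 to 0.81) for Psmb8, 0.86 for Psmb9 and 0.55 ± 0.23 (SE, adjusted p = 0.0606) for Psmb10, and none passed. Of the 10 tested microglial markers 9 were higher in the hippocampus, with a median of 1.71, and their part in these values was not tested. Among the partners, the deubiquitinase Usp14 (0.49 ± 0.15) and Zfand2a (0.40 ± 0.13) were higher and the adaptors Ubxn7 (-0.37 ± 0.12) and Ecpas (-0.36 ± 0.14) lower in the hippocampus (SE, adjusted p = 0.0167, 0.023, 0.0209 and 0.0496, edgeR). Among the regulators, the shuttle Ubqln4 (0.71) was higher and the deglycosylase Ngly1 (-0.52) was lower. Of the 11 tested class I loading genes 1 was higher and 2 were lower, and of the 8 tested interferon gamma genes 4 were higher and 1 was lower. These list counts stand beside 43.1% of all genes called in this comparison.

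No member passed the test of a genotype difference between tissues, in edgeR or DESeq2, where 1.15% of 13436 genes did in edgeR, and 1 had an unadjusted p under 0.05, beside 9.15% of all genes. For Psmb8 the hippocampal log2 change minus the cerebellar one was -0.15 ± 0.42 (SE), with a 95% interval of -1.03 to 0.73, and its sign turned without Npc1+/+ replicate 1 (0.07) and without Npc1-/- vehicle replicate 3 (0.09). In the same test 5 of the 10 microglial markers were lower, with a median of -1.38. The corresponding test for dipyridamole called no member in either tool, and 0% of genes in edgeR.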

How the data were processed

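The deposited files hold raw read counts per gene from an amplicon panel that reads a short target of each gene, in 24 libraries. Per the submitters' processing notes the authors used FastQC 0.11.9, Trimmomatic 0.39, STAR 2.7.9a and featureCounts 2.0.3 on GRCm39, with GENCODE M34, and counts were made without regard to strand, per the file headers. Reads of overlapping genes cannot be told apart, and the sources used here name no molecular identifiers, so intervals cover no PCR error. Psmb8 shares 14.7% of its exonic bases with Gm20496 on the opposite strand, which had no count, and Psmb9 5.8% with Tap1. Symbols matched 51884 of 57126 gene IDs, and IDs without one held 0.21% of counts.

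Each tissue was fitted over its 12 libraries in edgeR 4.0.16 (R 4.3.3) with TMM factors, filterByExpr, robust dispersion, the quasi-likelihood test and sex as covariate. Adjusted p-values are Benjamini-Hochberg over all genes tested, with 0.05 as threshold. Since all Npc1+/+ mice were female, sex was estimated within the Npc1-/- mice. Tests between tissues used all 24 libraries, a block for each animal and a term for sex within tissue. The pairing is the animal number in the labels, and deviations of the libraries of one animal correlated from -0.432 to 0.484, above 0.1 in 8 of 12. All 8 were Npc1-/- mice, and the 4 Npc1+/+ mice had -0.398, 0.076, 0.018 and -0.432. CPM are counts over TMM-scaled totals of the 24 libraries. Replicates are separate mice. The tests were tried on simulated counts, drawn independently for each library with no effect of animal or sex and no outlying library. That trial does not cover such effects.

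The members, gene lists and tests were chosen with earlier results of these data known. Named members were Npc1, Psmb5 to Psmb10, Psme1 and Psme2, every member called, the highest and lowest otherwise, and up to 4 called or 2 uncalled genes of each list. Some genes of the lists that this rule would name are not reported here. Psmb11, Psmc6, Psmg1 and members singled out by their ranges were chosen after their values were seen. The alternatives tried were DESeq2 1.42.0, RLE factors, the fit without sex, a replicate block, no filter, a filter of at least 20 counts in 4 libraries, only the groups compared, and each mouse left out. A further one left out the mice in doubt, Npc1-/- vehicle replicate 2 and Npc1-/- dipyridamole replicate 4.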

Additional observations from a re-analysis of the deposited data

Results flagged for a closer look

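In each group of 4 libraries, 10 members were checked for a library far from the other 3, by Dixon's 95% critical value for the gap to the nearest library over the group's range. This was found in 5 of 60 groups, and chance gives about 1 in 20. Of the 5, 2 were in the cerebellum of Npc1-/- vehicle replicate 2, which had the fewest counts (1833609). It had the highest Psmc2 of its group, at 123 CPM beside 63.5 to 72.9 CPM, and the lowest Psme2, at 5.14 CPM from 10 counts, beside 8.91 to 8.99 CPM. The hippocampus of the same mouse had the highest Psmb10 of its group, at 26.4 CPM beside 12.4 to 14.5 CPM, together with the highest summed choroid plexus markers, at 8144 CPM beside 168 to 4729 CPM. The part of depth and of choroid plexus tissue in these values was not tested. Npc1+/+ replicate 3 had the highest cerebellar Psmb9 of its group, at 0.770 CPM from 6 counts, beside 0.300 to 0.364 CPM. Npc1+/+ replicate 1 had the lowest hippocampal Psmd12 of its group, at 95.3 CPM beside 115 to 116 CPM.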

How the results depend on the processing

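No member was called for dipyridamole in either tissue, for the genotype by tissue test or for the dipyridamole by tissue test under any alternative run. For genotype in the cerebellum, 1 member was called, and there were 2 without the sex covariate (Psmg1 lower), 2 with DESeq2 (Psme2) and 3 without a filter (Psme1 and Psme2), beside Psmb8 each time. Leaving out 1 mouse gave 0 to 3: 0 without Npc1-/- vehicle replicate 3, and 3 without Npc1+/+ replicate 1 (Psme1 and Psme2) or Npc1-/- vehicle replicate 2 (Psme2, and Psmc2 lower). For genotype in the hippocampus, the 1 call became 0 with a replicate block (Psmb8 log2 1.32, adjusted p = 0.233), with only the groups compared (1.5, 0.259) and without the mice in doubt (1.41, 0.0501), and leaving out 1 mouse gave 0 to 1. For the dipyridamole group against Npc1+/+ in the cerebellum, the 2 calls became 4 without a filter and 1 without the mice in doubt, and leaving out 1 mouse gave 1 to 3. In the hippocampus the 1 call became 0 with a replicate block (Psmb8 adjusted p = 0.0543) and without the mice in doubt (0.0595), and leaving out 1 mouse gave 0 to 1. For the tissues of Npc1+/+ mice, the 2 calls became 1 without the tissue by sex term, 0 without the block for the animal and 1 without the mice in doubt, and leaving out 1 mouse gave 1 to 6. Where a value moved, the cause was not tested. In these comparisons between genotypes Psmb8 kept its sign in all alternatives, and it kept its call in 19 of 20 for genotype in the cerebellum, 10 of 20 in the hippocampus, and 20 and 17 of 20 for the dipyridamole group against Npc1+/+. Replicate numbers mark no shared animal between groups, and same-numbered libraries correlated from -0.404 to 0.462 in the cerebellum and -0.406 to 0.563 in the hippocampus, so the block on replicate numbers is given here only. In the cerebellum it left Psmb8 called (log2 1.38, adjusted p = 0.0388), took the call of Psmc2 in the dipyridamole group (0.0633) and added Psme2 (0.0388). Over the whole window, with 50 bases past the start site, the interferon response element core was found in 5 members in place of 3 (3.44% of all windows in place of 2.98%), TTCNNNGAA in 3 in place of 2 (8.30% and 7.02%) and TGANNNNGC in 24 in place of 17 (41.3% and 35.2%). The ratios of immune to constitutive subunits moved by less than 1 pooled SD under every alternative. Depth limits Psmb9 most: its groups hold 16 to 56 counts in all 4 libraries together.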
